A study of Rattus norvegicus with 18 samples.

Results

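Immediate early genes are transcribed within minutes of a stimulus, before new protein is made, and their RNA is short-lived. Fos and Jun pair into the transcription factor AP-1, and Junb is a further AP-1 partner. Atf3 is a related leucine zipper factor of the stress response. Egr1 is a zinc finger factor and Nr4a1 an orphan nuclear receptor, both switched on by growth factor, calcium and cyclic AMP signals. Myc is a growth regulator that follows mitogens. In the heart, haemodynamic load and hypertrophic hormones are known to switch such genes on.

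A set of 7 such genes, chosen by their rat Ensembl IDs, was followed in the hearts of male Wistar rats aged 3 weeks. Their mothers were given vehicle during gestation (n = 7 hearts), or cannabidiol, a cannabis compound that does not intoxicate. The lower daily dose was 3 mg/kg (CBD3, n = 6 hearts) and the higher 30 mg/kg (CBD30, n = 5 hearts). Whole hearts were profiled by bulk RNA sequencing, so a lower level can mean fewer cells of a type or less RNA per cell, which cannot be told apart. Of the 7 genes, 6 had a row among the 30560 genes of the count table and all 6 were among the 17009 genes tested: Fos (ENSRNOG00000008015), Jun (ENSRNOG00000026293), Egr1 (ENSRNOG00000019422), Atf3 (ENSRNOG00000003745), Nr4a1 (ENSRNOG00000007607) and Myc (ENSRNOG00000004500). Junb (ENSRNOG00000042838) was not analysed here. The symbols come with the list of IDs, since the reference table used here pairs 0 of its 47357 genes with an Ensembl ID. For the same reason, heart markers and a list of 48 related early genes were not looked up.

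The libraries held 44321480 to 80451013 counts in vehicle, 56992503 to 89240727 in CBD3 and 44127009 to 82220752 in CBD30 hearts. Fos was the most thinly covered member, with 32 to 257 counts in a library, and Jun the most deeply covered, with 3834 to 9456. Each column carries a code whose last digit, 1 or 2, no label explains. Scaled expression hardly differed between these digits (median absolute log2 difference 0.0183 over the tested genes), and between -0.045 and -0.0049 for the 6 members, and 1 of the 17009 genes had an unadjusted p under 0.05 for the digit. In 2555 genes of low count (mean of 2 to 10), a count of 2 occurred 0.56 times as often as the average of counts of 1 and 3. No source used here says whether the counts had been adjusted for the digit before they were deposited. The p-values treat them as unadjusted, which limits every p-value given. Whether littermates were sampled is not given either, and p-values treat the offspring as independent. For vehicle, the labels give each of the 4 codes that end in digit 1 to 2 samples. These 4 vehicle samples could not be matched to a replicate number and are named by their code.

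The reference promoter table held 3 of the 7 symbols, and 2 of these had counts, Egr1 and Nr4a1. They are shown because they were the only members with both a promoter entry and counts. The 250 bases before the RefSeq start site (GRCr8, plus strand) run over chr18:26736828-26737077 for Egr1 and chr7:134259888-134260137 for Nr4a1, where longer Nr4a1 transcripts start further upstream. Capitals mark CArG boxes, the sequence bound by serum response factor, and the letters CGTCA in the forward direction, the core of the cyclic AMP response element.
Egr1: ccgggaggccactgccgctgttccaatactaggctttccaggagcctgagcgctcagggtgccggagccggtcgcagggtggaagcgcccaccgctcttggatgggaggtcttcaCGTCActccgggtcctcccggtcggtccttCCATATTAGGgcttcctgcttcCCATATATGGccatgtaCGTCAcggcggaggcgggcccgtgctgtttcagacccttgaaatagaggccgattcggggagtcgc
Nr4a1: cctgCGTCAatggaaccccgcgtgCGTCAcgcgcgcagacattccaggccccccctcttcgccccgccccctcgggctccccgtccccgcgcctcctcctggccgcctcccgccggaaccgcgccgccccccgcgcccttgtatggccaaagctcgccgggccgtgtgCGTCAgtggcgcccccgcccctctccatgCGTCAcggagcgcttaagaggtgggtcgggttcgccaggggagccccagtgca

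The Egr1 window held 2 CArG boxes, 105 and 83 bases before the start, and 2 copies of CGTCA. The Nr4a1 window held 0 CArG boxes and 4 copies of CGTCA. Searched on both strands, a CArG box lay in 1.5% of 33469 promoter windows of this length, and 2 or more in 0.0209%. CGTCA lay in 18.2% of the windows, at 2 or more positions in 3.98% and at 4 or more in 0.173%. The full palindrome TGACGTCA (in 1.59% of windows), which contains CGTCA, and the AP-1 letters TGANTCA (in 6.34%) were found in neither window. These matches describe letters and not bound sites.

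Fos, the first of the AP-1 pair, had the largest spread of the members in vehicle hearts and over the groups pooled, but not in CBD3 or CBD30 hearts. Its level is given in TMM-scaled CPM, in which counts are scaled for library size and composition but not for gene length. Fos ranged from 0.821 to 3.02 CPM in vehicle hearts (median 1.08) and from 0.799 to 1.95 CPM in CBD3 hearts (median 1.02). In the CBD30 hearts it was at 1.04, 1.29, 1.12, 1.74 and 1.25 CPM. The vehicle sample coded 4.1 was the highest of all hearts, and every CBD30 heart lay within the vehicle range. Its mean was 1.55 ± 0.811 CPM in vehicle hearts (SD, n = 7). CBD3 hearts averaged 1.23 ± 0.499 CPM (SD, n = 6), and CBD30 hearts 1.29 ± 0.273 CPM (SD, n = 5).

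Jun, the AP-1 partner of Fos, had the smallest spread of the members in vehicle and CBD3 hearts and over the groups pooled, while in CBD30 hearts Myc had the smallest. It ranged from 78.8 to 111 CPM in vehicle hearts (median 94.9), from 84.5 to 118 CPM in CBD3 hearts (median 98.8) and from 69.9 to 107 CPM in CBD30 hearts, which stood at 93.3, 89.0, 107, 69.9 and 92.0 CPM. The lowest of all hearts was CBD30 replicate 4 and the highest CBD3 replicate 2. The groups overlapped throughout, and vehicle hearts averaged 95.7 ± 10.4 CPM (SD, n = 7), CBD3 hearts 98.5 ± 11.4 CPM (SD, n = 6), CBD30 hearts 90.2 ± 13.2 CPM (SD, n = 5).

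Egr1 was high in 1 or 2 hearts of each group. In vehicle hearts it ranged from 4.91 to 9.47 CPM (median 6.13), with the samples coded 1.1 and 4.1 the highest. In CBD3 hearts 5 samples lay between 5.11 and 5.87 CPM, and replicate 6 stood at 13.0 CPM. The CBD30 hearts were at 10.3, 4.67, 5.34, 6.89 and 6.91 CPM, with replicate 1 the highest. The group means were close to each other: vehicle hearts averaged 6.55 ± 1.74 CPM (SD, n = 7), CBD3 hearts 6.74 ± 3.1 CPM (SD, n = 6), CBD30 hearts 6.82 ± 2.17 CPM (SD, n = 5).

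Nr4a1 singled out the same hearts. It ranged from 5.75 to 11.3 CPM in vehicle hearts (median 7.83), where the samples coded 4.1 and 1.1 were again the highest. In CBD3 hearts it ranged from 5.02 to 14.5 CPM (median 7.02), with replicate 6 on top at 14.5 against 7.87 CPM in the next heart of its group. The CBD30 hearts were at 12.2, 6.01, 7.35, 7.87 and 8.0 CPM, and replicate 1 was the highest. On average Nr4a1 stood at 8.36 ± 2.12 CPM in vehicle, 7.83 ± 3.41 CPM in CBD3 and 8.28 ± 2.32 CPM in CBD30 hearts (SD).

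Atf3, which cell stress induces, had its highest value in that CBD3 heart too. It ranged from 2.95 to 6.16 CPM in vehicle hearts (median 3.67) and from 3.13 to 9.02 CPM in CBD3 hearts (median 4.29), and stood at 5.75, 4.11, 3.42, 3.03 and 4.24 CPM in CBD30 hearts. Myc varied less, from 3.57 to 5.48 CPM in vehicle (median 4.93) and from 3.31 to 6.18 CPM in CBD3 hearts (median 4.90). In CBD30 hearts it was at 4.34, 5.19, 4.18, 3.97 and 4.85 CPM. Averages of Atf3 were 4.01 ± 1.06, 4.90 ± 2.16 and 4.11 ± 1.04 CPM (SD) in vehicle, CBD3 and CBD30 hearts, and those of Myc 4.66 ± 0.758, 4.79 ± 0.986 and 4.51 ± 0.501 CPM (SD). CBD3 replicate 6 was the highest of the 18 hearts for Egr1, Nr4a1, Atf3 and Myc and was among the highest 3 for Fos, which made it a top 3 heart for 5 of the 6 members. For Jun it stood at 97.2 CPM, near the middle of its group.

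**Figure D1:**
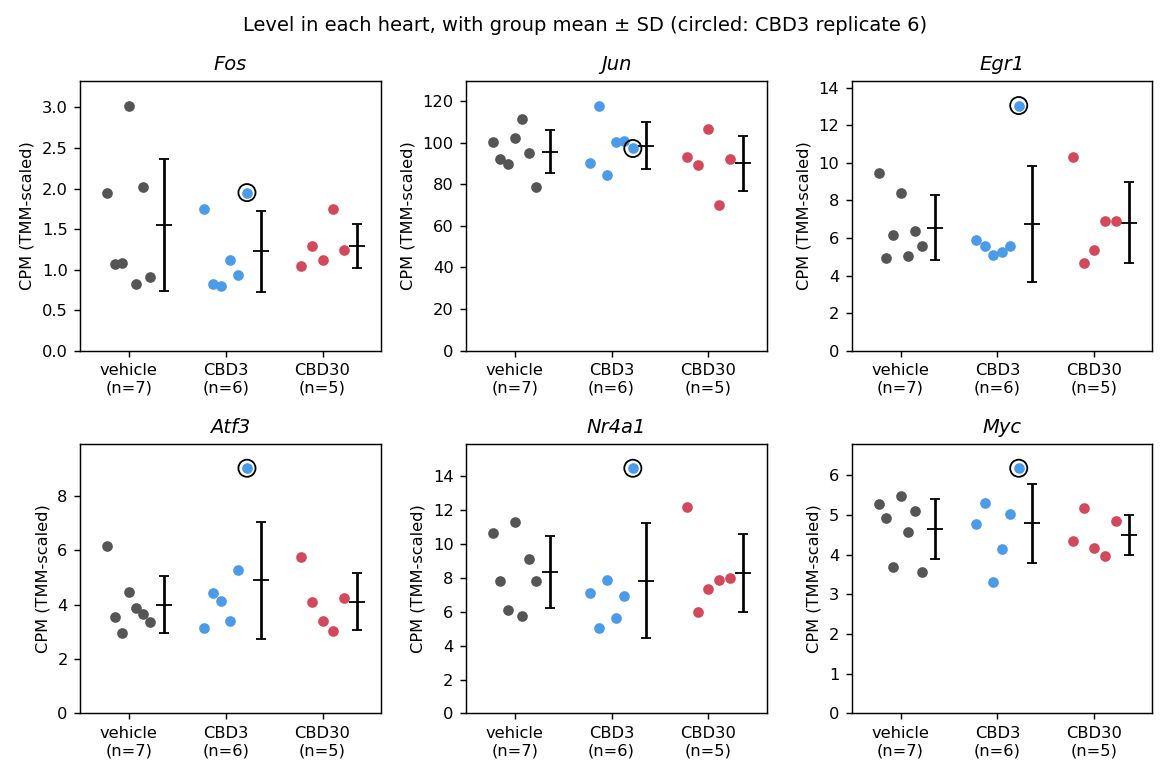
TMM-scaled CPM of the 6 members in each heart (points), with the group mean and SD beside them, for vehicle (n = 7), CBD3 (n = 6) and CBD30 hearts (n = 5). The circled heart, CBD3 replicate 6, is the highest for Egr1 (13.0 CPM), Atf3 (9.02), Nr4a1 (14.5) and Myc (6.18), while the groups overlap for every gene.

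CBD30 was set against vehicle to ask if exposure to the higher dose before birth left these genes at another level at 3 weeks of age. None of the 6 members passed an adjusted p of 0.05 (0 of 6; edgeR quasi-likelihood test, Benjamini-Hochberg adjusted over all 17009 tested genes), and 0% of all tested genes did. At an unadjusted p under 0.05 there were 0 of the 6 members, against 16.4% of all tested genes. DESeq2 also called 0 of the 6, and 133 genes in all, while limma voom called 0 genes. Without the vehicle sample coded 3.1, edgeR called 267 genes, and without CBD30 replicate 1 it called 1 gene, with 0 of the 6 members in either case. Fos had the largest estimate, with a mean of 1.29 CPM in CBD30 and 1.55 CPM in vehicle hearts, which on the log2 scale was a difference of -0.28 ± 0.32 (SE; edgeR adjusted p = 0.659). Its 95% interval ran from 0.519 to 1.31 in fold.

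For Jun the log2 difference was -0.086 ± 0.10 (SE; adjusted p = 0.682 from edgeR). Its 95% interval of 0.81-fold to 1.1-fold was the narrowest of the set. Egr1, Atf3, Nr4a1 and Myc had log2 fold changes of -0.049 to 0.057, with edgeR adjusted p of 0.881 to 0.981 and intervals that lay within 0.70-fold to 1.49-fold. The median log2 fold change of the 6 members was -0.032, beside -0.021 over all tested genes. The median size of the change, regardless of sign, was 0.053 in the members and 0.18 over all tested genes. The call did not change in any fit run, but the Fos estimate moved to -0.027 without the vehicle sample coded 4.1.

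The lower dose was set against the same 7 vehicle hearts, so both comparisons share their controls. Again 0 of 6 members passed an adjusted p of 0.05, as did 0% of all tested genes. An unadjusted p under 0.05 was reached by 0 of the 6 members and by 8.92% of all tested genes. DESeq2 called 0 of the 6, and 19 genes in all, and limma voom 0 genes. The highest estimate was that of Atf3, with a mean of 4.90 CPM in CBD3 and 4.01 CPM in vehicle hearts and a log2 difference of 0.29 ± 0.23 (SE; adjusted p = 0.612 from edgeR; 95% interval 0.878-fold to 1.70-fold). The lowest was that of Fos, with 1.23 CPM in CBD3 and 1.55 CPM in vehicle hearts and a log2 difference of -0.35 ± 0.30 (SE; adjusted p = 0.640 from edgeR; 95% interval 0.508-fold to 1.22-fold).

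Jun, Egr1, Nr4a1 and Myc lay between -0.096 and 0.042 on the log2 scale (edgeR adjusted p = 0.872 to 0.953). The median log2 fold change of the members was 0.038, beside -0.020 over all tested genes, and the median size was 0.069 beside 0.15. The single heart CBD3 replicate 6 set several of these estimates. Without it the log2 fold change was 0.023 for Atf3, -0.26 for Egr1, -0.36 for Nr4a1 and -0.53 for Fos, and still 0 of 6 members passed. The Fos estimate also rested on the vehicle sample coded 4.1, without which it was -0.095.

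Between the doses, 0 of 6 members passed an adjusted p of 0.05, as did 0% of all tested genes, and 0 of the 6 members against 1.73% of all tested genes had an unadjusted p under 0.05. DESeq2 called 0 of the 6, and 1 gene in all, and limma voom 0 genes. Atf3 had the largest estimate, at 4.11 CPM in CBD30 and 4.90 CPM in CBD3 hearts, or -0.25 ± 0.25 on the log2 scale (SE; adjusted p = 0.999 from edgeR). The other members lay between -0.13 and 0.082 on the log2 scale. The values of CBD30 and CBD3 hearts overlapped for all 6 members, as did those of either dose and vehicle. Groups that did not overlap were seen for 0.629%, 0.194% and 0.218% of all tested genes for CBD30 against vehicle, CBD3 against vehicle and CBD30 against CBD3. Without CBD3 replicate 6 the log2 fold change of CBD30 against CBD3 was 0.014 for Atf3, 0.32 for Egr1 and 0.35 for Nr4a1.

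**Figure D2:**
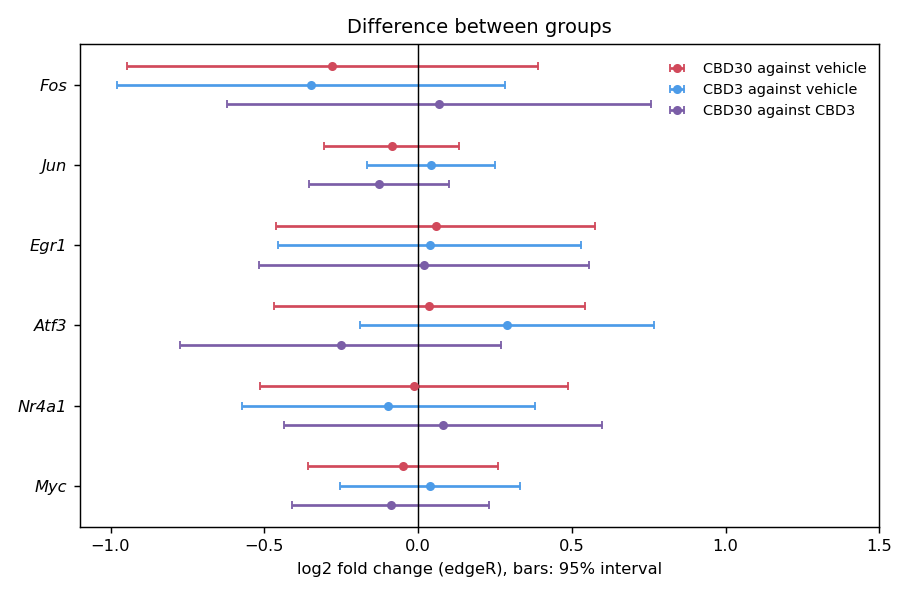
edgeR log2 fold changes with 95% intervals for the 6 members in the 3 comparisons. Every interval crosses 0, and those of Jun and Myc are the narrowest.

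Within the digits of the code, estimates for the early genes went different ways without passing the test. The CBD3 difference from vehicle was -0.39 for Egr1, -0.13 for Atf3 and -0.42 for Nr4a1 on the log2 scale in the digit 1 samples (3 CBD3, 4 vehicle). In the digit 2 samples (3 of each), which hold CBD3 replicate 6, it was 0.49, 0.70 and 0.25. The CBD30 difference from vehicle was -0.59 for Fos in digit 1 (2 CBD30, 4 vehicle) and 0.13 in digit 2 (3 of each). The interaction of dose and digit had an edgeR adjusted p of 0.532 or more for the members in both comparisons with vehicle. Between the doses, Atf3 had a CBD30 difference from CBD3 of 0.35 in digit 1 and -0.73 in digit 2, and its interaction did not pass either (edgeR adjusted p = 0.9996).

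The members differed widely in their spread between hearts. The SD of log2 CPM within groups, pooled over the groups, was 0.56 for Fos, which exceeds that of 84.7% of all tested genes. It was 0.44 for Egr1, 0.43 for Nr4a1 and 0.42 for Atf3, above 75.0%, 74.5% and 73.5% of tested genes. Myc, at 0.25, was near the middle of all genes (above 42.4%) and Jun, at 0.18, was steadier than most (above 20.3%). The median over all tested genes was 0.28. Among 13527 genes that averaged 1 CPM or more, the 4 variable members stood above 86.7% to 93.5% of genes.

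Counting error was smaller than this spread for every member. edgeR's estimate of the coefficient of variation beyond counting error was 37.3% for Fos, 29.8% for Egr1, 29.0% for Atf3, 28.9% for Nr4a1, 18.5% for Myc and 13.3% for Jun. Poisson counting error alone, at the median count of each gene, would give 11.5% for Fos, 6.38% or less for Egr1, Atf3, Nr4a1 and Myc, and 1.25% for Jun.

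**Figure D3:**
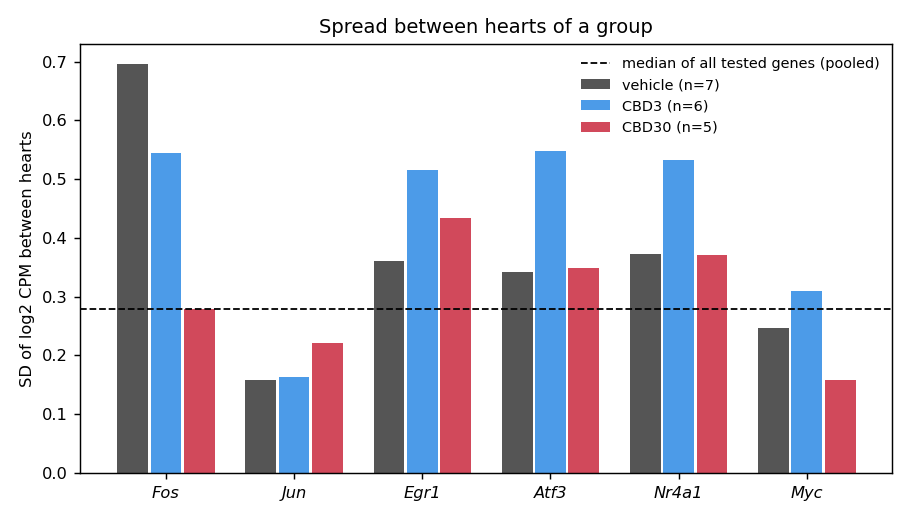
SD of log2 CPM between the hearts of a group for each member, in vehicle (n = 7), CBD3 (n = 6) and CBD30 hearts (n = 5). The dashed line marks 0.278, the median pooled SD of all tested genes. Fos, Egr1, Atf3 and Nr4a1 stand above it in every group, Fos only just in CBD30 hearts (0.279), and Jun in none.

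Whether the spread differed between groups was tested with limma on the absolute deviations from the group mean, for all tested genes. None of the 6 members passed an adjusted p of 0.05 in any of the 3 comparisons. Over all tested genes the share called was 0.0176% for CBD30 against vehicle, 0% for CBD3 against vehicle (with 11.4% at an unadjusted p under 0.05) and 0.00588% for CBD30 against CBD3 (6.70% unadjusted). Fos showed the largest contrast, with an SD of log2 CPM of 0.28 in CBD30 hearts (n = 5) and 0.70 in vehicle hearts (n = 7; limma unadjusted p = 0.00726, adjusted p = 0.574, where 6.65% of all tested genes had an unadjusted p under 0.05). Its SD in CBD3 hearts was 0.54 (limma adjusted p = 0.613 for CBD3 against vehicle). Without the vehicle sample coded 4.1, the highest Fos heart, the difference in mean absolute deviation was -0.28 between CBD30 and vehicle hearts, against -0.43 with it, and -0.0097 between CBD3 and vehicle hearts, against -0.16 with it.

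Egr1, Atf3 and Nr4a1 had their largest SD in CBD3 hearts (0.52, 0.55 and 0.53), above those in vehicle hearts (0.36, 0.34 and 0.37), but with adjusted p of 0.63 to 0.861 from limma. Over all tested genes the median SD was 0.31 in vehicle, 0.22 in CBD3 and 0.27 in CBD30 hearts. In the fit without CBD3 replicate 6, the difference in mean absolute deviation between CBD3 and vehicle hearts was -0.23 for Egr1, 0.0025 for Atf3 and -0.072 for Nr4a1.

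The members were then compared heart by heart, after the group means had been taken out, as set out in the plot of deviations for 3 pairs. Across the 18 hearts, Egr1 and Nr4a1 had a Pearson correlation of 0.87 (permutation within groups, p = 0.00024) and a Spearman correlation of 0.74 (permutation p = 0.00129). A heart with a doubling of Egr1 relative to its group had a log2 difference of 0.86 ± 0.13 (SE) in Nr4a1. The test was run for all tested genes with Egr1 as the covariate, and Nr4a1 passed (limma adjusted p = 0.0465), as did 0.0118% of genes. With Nr4a1 as the covariate Egr1 passed (limma adjusted p = 0.0300), as did 0.0294% of genes. These fits, with a covariate other than Fos, were chosen after the values were seen.

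The correlation of Egr1 and Nr4a1 was 0.77 among the 9 hearts of digit 1 and 0.94 among the 9 of digit 2. Without the 2 hearts farthest from the median of Egr1, CBD3 replicate 6 and CBD30 replicate 1, it was 0.68 (permutation p = 0.0113). The limma call itself was marginal: leaving out each heart in turn gave correlations of 0.776 to 0.904, with adjusted p of 0.0332 to 0.372, and 13 of 18 of these fits missed the threshold. Without CBD3 replicate 6 the correlation was 0.776 and the adjusted p 0.372.

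Atf3 was less closely tied to them. Its Pearson correlation was 0.77 with Egr1 (permutation p = 0.00293; Spearman 0.45, permutation p = 0.0723) and 0.73 with Nr4a1 (permutation p = 0.00406; Spearman 0.46, permutation p = 0.0816). With TMM scaling neither passed after adjustment over all tested genes (limma adjusted p = 0.0905 to 0.215). Without the 2 hearts farthest from the median of the first gene named, Egr1 with Atf3 fell to 0.44 (permutation p = 0.126) and Atf3 with Nr4a1 to 0.45 (permutation p = 0.103), so these relations rest largely on CBD3 replicate 6 and 1 further heart each (CBD30 replicate 1 and the vehicle sample coded 1.1). Within the digits the correlation with Egr1 was 0.69 and 0.81, and that with Nr4a1 0.62 and 0.79. The outcome of the limma test depended on the scaling. With library size as the only scaling, Egr1 with Atf3 was at 0.83 and passed (limma adjusted p = 0.0239, Egr1 as the covariate). Atf3 with Nr4a1 was then at 0.81 and passed too (limma adjusted p = 0.0295, Atf3 as the covariate).

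**Figure D4:**
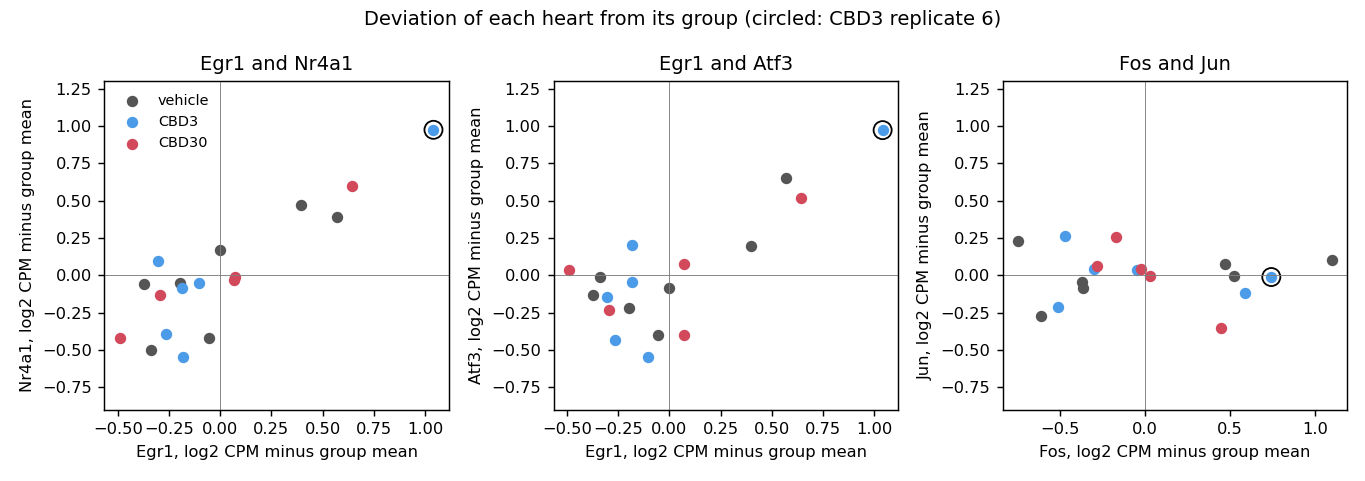
Deviation of each heart from its group mean in log2 CPM, for Egr1 with Nr4a1 (Pearson 0.87), Egr1 with Atf3 (0.77) and Fos with Jun (-0.092), over 18 hearts coloured by group. The circled heart, CBD3 replicate 6, lies at the upper right of the first 2 panels and near 0 for Jun.

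Fos followed Egr1 and Nr4a1 less closely. Its Pearson correlation was 0.59 with Egr1 (permutation p = 0.00911; Spearman 0.60, permutation p = 0.0082), 0.59 with Nr4a1 (permutation p = 0.0128; Spearman 0.57, permutation p = 0.0209) and 0.56 with Myc (permutation p = 0.0342; Spearman 0.60, permutation p = 0.0207). Without the vehicle sample coded 4.1 and vehicle replicate 6, the 2 hearts farthest from the median of Fos, these were 0.59 (permutation p = 0.0242), 0.52 (permutation p = 0.0684) and 0.46 (permutation p = 0.136). With Fos as the covariate in limma, 0 of the other 5 members and 0% of 17008 tested genes passed (adjusted p = 0.665 to 0.951 for the members). Within the digits, the correlation of Fos was 0.40 and 0.74 with Egr1, 0.44 and 0.74 with Nr4a1, and 0.55 and 0.54 with Myc.

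Fos and Atf3 had a Pearson correlation of 0.28 (permutation p = 0.298; Spearman 0.21, permutation p = 0.426), and 0.18 and 0.35 within the digits. Fos and Jun, the partners in AP-1, had no detectable relation in RNA level across these hearts (Pearson -0.092, permutation p = 0.714; Spearman -0.015, permutation p = 0.956). Their correlation was 0.14 and -0.33 within the digits. By Pearson correlation Jun was closest to Myc (Pearson 0.50, permutation p = 0.0352; Spearman 0.43, permutation p = 0.088) and by Spearman correlation to Atf3 (Pearson 0.31, permutation p = 0.23; Spearman 0.46, permutation p = 0.0694; 0.51 and 0.16 within the digits). Jun and Myc had a correlation of 0.71 and 0.35 within the digits and 0.45 (permutation p = 0.0973) without the 2 hearts farthest from the median of Jun. With Myc as the covariate the limma adjusted p was 0.956. Atf3 and Myc had a Pearson correlation of 0.61 (permutation p = 0.0184; Spearman 0.68, permutation p = 0.00461), which was 0.29 and 0.83 within the digits and 0.43 (permutation p = 0.106) without the 2 hearts farthest from the median of Atf3 (limma adjusted p = 0.336 and 0.956). The remaining pairs had Pearson correlations of 0.024 for Jun and Egr1 (permutation p = 0.927) and -0.13 for Jun and Nr4a1 (permutation p = 0.607). For Egr1 and Myc it was 0.44 (permutation p = 0.104), and for Nr4a1 and Myc 0.35 (permutation p = 0.209). In all, 15 pairs of members were compared, and the permutation p-values are not adjusted for that number.

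**Figure D5:**
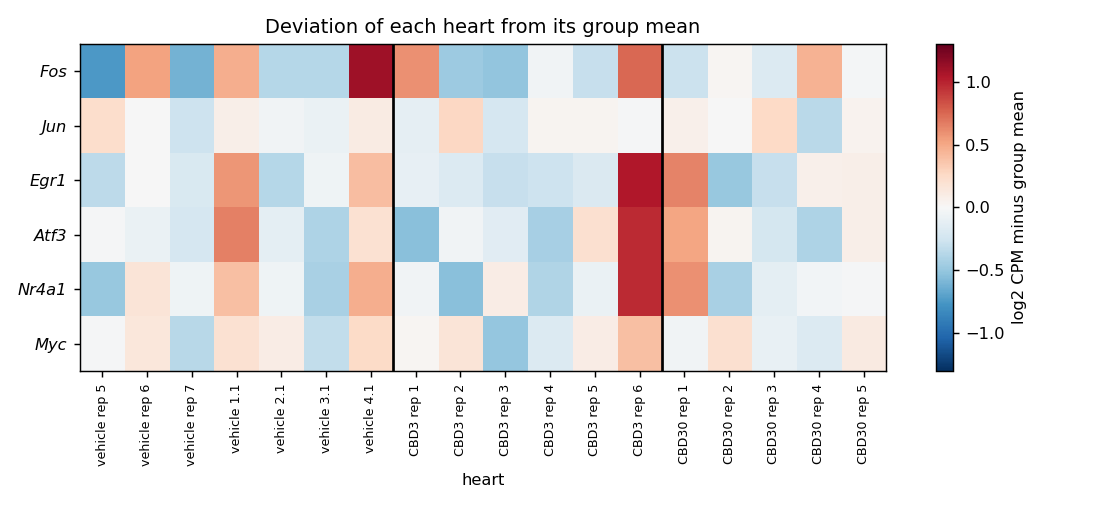
Deviation of each heart from its group mean in log2 CPM, by member (rows) and heart (columns, grouped as vehicle, CBD3 and CBD30). CBD3 replicate 6, CBD30 replicate 1 and the vehicle samples coded 1.1 and 4.1 are above their group mean for Egr1, Atf3 and Nr4a1 together, while Jun is pale across the row.

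The composition of the libraries moved with some of these genes, and its part in their covariation was not tested. The TMM factor, which corrects for composition, had a Pearson correlation of 0.70 with Nr4a1 (permutation p = 0.00071; Spearman 0.77, permutation p = 0.00065) and 0.62 with Egr1 (permutation p = 0.00456; Spearman 0.61, permutation p = 0.0142). It was 0.57 with Fos (permutation p = 0.0392; Spearman 0.53, permutation p = 0.049) and 0.48 with Atf3 (permutation p = 0.0267; Spearman 0.43, permutation p = 0.0717). Without the 2 libraries with the most distant factors these were 0.63, 0.47, 0.60 and 0.41. Within the digits they were 0.80 and 0.59 for Nr4a1, 0.65 and 0.51 for Egr1, 0.19 and 0.87 for Fos, and 0.79 and 0.23 for Atf3. For Jun and Myc the factor had Pearson correlations of -0.031 (permutation p = 0.908) and 0.42 (permutation p = 0.0894). Without those 2 libraries they were -0.11 and 0.55. The number of genes detected, 19615 to 20474 in a library, had correlations of 0.64 with Nr4a1 (permutation p = 0.00373; Spearman 0.75, permutation p = 0.00112), 0.61 with Egr1 (permutation p = 0.00816; Spearman 0.71, permutation p = 0.00479) and 0.70 with Fos (permutation p = 0.00215; Spearman 0.62, permutation p = 0.00619). These were 0.72, 0.64 and 0.75 without the 2 libraries farthest from the median number, and within the digits 0.88 and 0.39, 0.87 and 0.34, and 0.65 and 0.75. The number of genes detected had a correlation of 0.30 with Atf3 (permutation p = 0.203; Spearman 0.25, permutation p = 0.316), which was 0.54 without those 2 libraries and 0.67 and -0.034 within the digits. With Jun and Myc it was -0.26 (permutation p = 0.35) and 0.29 (permutation p = 0.227), or -0.026 and 0.56 without those 2 libraries. Library size (log2 of total counts) had Pearson correlations of -0.080 to 0.23 with the 6 members (permutation p of 0.376 or more). For the first principal component of log2 CPM they were -0.39 to 0.14 (permutation p of 0.0955 or more). Within the digits the correlations with this component differed in sign. They were -0.095 and 0.050 for Fos, -0.085 and 0.79 for Jun, and -0.37 and 0.28 for Egr1. For Atf3 they were -0.63 and 0.55, for Nr4a1 -0.70 and 0.26, and for Myc -0.25 and 0.56. The permutation p-values of these relations, computed for 6 members and several library measures, are not adjusted for their number. With library size as the only scaling, the correlation of Egr1 and Nr4a1 was 0.91 (limma adjusted p = 0.00207).

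Among other genes that averaged 1 CPM or more, the genes most like Fos across the 18 hearts were ENSRNOG00000001189 (Pearson 0.82, permutation p = 0.00078; Spearman 0.80, permutation p = 0.00096) and ENSRNOG00000008725 (Pearson 0.82, permutation p = 0.00011; Spearman 0.78, permutation p = 0.00045). They averaged 9.93 and 16.4 CPM, and neither passed after adjustment over all tested genes (limma adjusted p = 0.376 and 0.665). Both IDs were picked for the highest correlations in these same hearts. The permutation p-values do not take that pick into account, nor do the correlations in parts of these hearts that follow. Without the 2 hearts farthest from the median of Fos the correlations were 0.73 and 0.77, and within the digits 0.73 and 0.88 for the first ID and 0.69 and 0.93 for the second. No source used here pairs these IDs with a symbol.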

How the data were processed

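The values deposited by the authors are whole-number gene counts under Ensembl IDs, and whether they were adjusted before deposit is not stated. Named in the submitters' processing notes are the build mRatBN7.2, featureCounts and edgeR, and no source used here gives the aligner, annotation release or strand setting. Libraries were made from messenger RNA with a stranded kit, per the labels' protocols. From these counts, TMM factors, CPM, log2 CPM (prior count 2) and tests were computed here. Genes were kept by filterByExpr by group (minimum count 10, minimum total 15), and 1 model held all 18 samples (edgeR 4.0.16, quasi-likelihood test, R 4.3.3). Its p-values were Benjamini-Hochberg adjusted over all tested genes, with a threshold of 0.05. Spread was tested with limma 3.58.1 on absolute deviations of log2 CPM, and covariation with limma on the log2 CPM of a member plus group. Permutation p-values used 100000 permutations within groups, two-sided. The steps were tested on simulated data. Alternatives included DESeq2 1.42.0. Replicate libraries were not duplicates of each other: over 46 pairs the chi-square per degree of freedom was at least 34.4. All members were named, with the 2 IDs most correlated with Fos. The members and lists were chosen with earlier results of these data known.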

Additional observations from a re-analysis of the deposited data

Results flagged for a closer look

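In the 18 sets tested, 6 members in each of 3 groups, 1 sample stood far from the others, where chance flags about 1 in 20. It was CBD3 replicate 6 for Egr1, at 13.0 CPM against 5.87 CPM in the nearest heart of its group, a gap of 0.852 of the range of the group. The same heart was the highest of its group for Fos (1.95 CPM), Atf3 (9.02), Nr4a1 (14.5) and Myc (6.18), without a gap of that size.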

How the results depend on the processing

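In every alternative run, 0 of 6 members were called in each of the 3 comparisons of level and of spread, and 0 of 5 with Fos as the covariate. The estimates listed next changed sign, some of them among the largest of the set, and the cause was not tested. Values for level are log2 fold changes and those for spread are differences in mean absolute deviation. The unblocked fit of the numbered samples, the fits without the 3 far samples for correlations and without the 2 hearts highest in mean rank (CBD3 replicate 6 and the vehicle sample coded 4.1), and all correlations other than with Fos were chosen after the data were seen.

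For CBD30 against vehicle, Nr4a1 was 0.0046 with relative log expression factors, 0.0055 with DESeq2 and 0.0047 with DESeq2 after the edgeR filter, 0.14 without the 3 far samples (vehicle coded 1.1 and 2.1, CBD30 replicate 2), 0.041 in digit 1 and 0.029 in digit 2. Fos was 0.13 in digit 2. Atf3 was -0.031 with library size only and -0.030 in digit 2. For CBD3 against vehicle with library size only, Jun was -0.0016, Egr1 -0.0050 and Myc -0.013. Egr1 was -0.040 with limma voom. In digit 1, Egr1 was -0.39, Atf3 -0.13 and Myc -0.11, and in digit 2 Fos was 0.086 and Nr4a1 0.25. For CBD30 against CBD3, Atf3 was 0.35 and Myc 0.11 in digit 1, and Egr1 -0.32 and Nr4a1 -0.22 in digit 2.

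Hearts with the same replicate number were not closely alike. In 8 same-numbered pairs, the deviations had correlations of -0.196 to 0.308, with 2 above 0.1. Of 14 numbered samples, 3 correlated best with their own number. The 4 vehicle samples that could not be matched to a number could not enter. Whether same-numbered hearts shared a litter or batch is not given and was not tested. With a replicate block over the 14 numbered samples, CBD30 against vehicle was 0.41 for Fos, 0.73 for Nr4a1 and 0.20 for Myc, CBD3 against vehicle 0.11 for Fos, -0.053 for Jun and 0.43 for Nr4a1, and CBD30 against CBD3 0.0015 for Myc. In that fit Egr1 and Atf3 kept their sign but moved to 0.79 and 0.70 (CBD30 against vehicle) and 0.57 and 0.75 (CBD3 against vehicle). An edgeR unadjusted p under 0.05 was reached there by 2 of 6 members (CBD30 against vehicle) and 1 of 6 (CBD3 against vehicle). Their lowest adjusted p was 0.274 and 0.405, and the share of all genes is not given for this fit. Among the 14 samples matched to a number, only vehicle replicate 5 shares it with a CBD30 heart. Only vehicle replicates 5 and 6 share it with a CBD3 heart there. With that replicate block the spread differed by -0.15 for Jun, 0.035 for Nr4a1 and 0.035 for Myc (CBD30 against vehicle), and by -0.00079 for Jun and 0.066 for Egr1 (CBD30 against CBD3), and Jun and Egr1 had a correlation of -0.087. Without the block the same samples gave 0.045 for Fos, 0.14 for Nr4a1 and 0.040 for Myc (CBD30 against vehicle) and 0.058 for Nr4a1 (CBD3 against vehicle).

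For spread with library size only, Atf3 was -0.016 (CBD30 against vehicle), Nr4a1 -0.029 and Myc -0.094 (CBD3 against vehicle) and Egr1 0.027 (CBD30 against CBD3). With deviations from the median, Jun was 0.00025 and Egr1 -0.014 (CBD3 against vehicle) and Egr1 0.061 (CBD30 against CBD3). Without the 3 far samples Myc was -0.0021 (CBD3 against vehicle). Correlations that changed sign were 0.31 for Fos and Jun and 0.35 for Jun and Nr4a1 with library size only, and 0.14 for Fos and Jun and -0.031 for Nr4a1 and Myc in digit 1. Jun and Egr1 were at -0.28 in digit 2, -0.018 without the 2 hearts farthest in Fos, -0.036 without the 3 far samples and -0.0064 without the 2 highest hearts. Without these 2 hearts Fos and Atf3 were at -0.066 and Nr4a1 and Myc at -0.022.

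Leaving out each heart in turn gave these ranges where a sign changed. For CBD30 against vehicle, levels were -0.14 to 0.17 for Egr1, -0.12 to 0.17 for Atf3 and -0.20 to 0.082 for Nr4a1, and spread -0.029 to 0.080 for Jun, -0.030 to 0.14 for Egr1, -0.047 to 0.13 for Atf3 and -0.16 to 0.025 for Nr4a1. For CBD3 against vehicle, levels were -0.016 to 0.082 for Jun, -0.26 to 0.15 for Egr1, -0.36 to 0.0044 for Nr4a1 and -0.047 to 0.13 for Myc, and spread -0.025 to 0.026 for Jun, -0.23 to 0.16 for Egr1, -0.072 to 0.16 for Nr4a1 and -0.051 to 0.088 for Myc. For CBD30 against CBD3, levels were -0.066 to 0.25 for Fos, -0.18 to 0.32 for Egr1, -0.41 to 0.014 for Atf3 and -0.10 to 0.35 for Nr4a1, and spread -0.029 to 0.080 for Jun, -0.11 to 0.28 for Egr1, -0.24 to 0.017 for Atf3 and -0.23 to 0.021 for Nr4a1. Correlations were -0.26 to 0.051 for Fos and Jun, -0.046 to 0.12 for Jun and Egr1 and -0.20 to 0.019 for Jun and Nr4a1. Over all genes, leaving out the vehicle sample coded 3.1 gave 267 calls for CBD30 against vehicle, against 0 with all hearts, and 0 of the members were among them.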
